A study of Mus musculus with 10 samples.

Results

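The 10 genes described here are the Hippo pathway effectors Yap1 and Wwtr1 (the gene of TAZ), the 4 TEAD transcription factors Tead1 to Tead4, and 4 classic YAP target genes, Ctgf, Cyr61, Amotl2 and Lats2. They were chosen by gene symbol, and 10 of 10 symbols were found among the 23337 genes of the authors' deposited table. The RNA came from cardiomyocytes of wild-type mice, in a GFP group and a dnMKL1 group of 5 biological replicates each. At postnatal day 1 the mice received AAV9 at 5e+08 vector genomes per gram. The vector carried GFP alone or a dominant-negative MKL1 together with GFP, in both groups behind cTNT, the cardiac troponin T promoter that restricts expression to cardiomyocytes. Cells were collected at postnatal day 14 by collagenase perfusion of the heart and fluorescence-activated sorting. The gate of the sort is not given in the sources used here. MKL1, also named MRTF-A, is a coactivator of serum response factor (SRF).

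YAP and TAZ are coactivators that do not bind DNA themselves. When the Hippo kinases LATS1 and LATS2 phosphorylate them, they are held in the cytoplasm by 14-3-3 proteins or degraded, and otherwise they enter the nucleus and act through TEAD factors. MRTF proteins also move between cytoplasm and nucleus, in response to actin polymerisation, and several genes, Ctgf and Cyr61 among them, are known targets of both the YAP-TEAD and the MRTF-SRF pair. In the heart, YAP with TEAD1 supports growth of fetal and neonatal cardiomyocytes. TEAD factors bind the element CATTCC, known in muscle genes as the M-CAT element. YAP is regulated largely through protein phosphorylation and location, which transcript levels do not show.

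Promoter sequences are shown first, since the TEAD element defines the pathway's DNA target and the members differ in whether they hold it. Of the 10 genes, 7 had an entry among the RefSeq promoter windows (build GRCm38.p6, 250 bases before to 50 bases after a start site), Cyr61 under its present symbol Ccn1. Tead1, Tead4 and Ctgf had no entry. CATTCC, or GGAATG on the other strand, was found in a window of 6 of these 7 genes (11 windows in all), against 16.6% of 27025 genes with a window. Cyr61, Amotl2 and Lats2 were listed as YAP targets, which may have partly set this count in advance. The 27025 genes had 32851 windows, so the 7 genes also had more windows per gene in which to find a match. No enrichment was tested. Each stretch below has 26 bases and runs 5′ to 3′ along the gene's strand, with the element in capitals:
Yap1 (chr9:8004722-8004747, minus strand): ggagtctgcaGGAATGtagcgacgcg
Wwtr1 (chr3:57576031-57576056, minus strand): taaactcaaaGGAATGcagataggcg
Tead3 (chr17:28350699-28350724, minus strand): tcattccgtaCATTCCggccatcccc
Cyr61 (chr3:145650073-145650098, minus strand): cgccaaccaaCATTCCtgagatgttt
Amotl2 (chr9:102717729-102717754, plus strand): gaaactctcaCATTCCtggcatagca
Lats2 (chr14:57746104-57746129, minus strand): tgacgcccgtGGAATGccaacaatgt

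The element began at position -141 from the start site in Yap1, -136 in Wwtr1, -103 in Cyr61 and -65 in Amotl2, and at position 5 of the transcript in Lats2. Tead3 held 4 matches over its 3 windows, and in the stretch shown a second CATTCC lies 9 bases upstream. Tead2 was the exception among the 7, with no match. The SRF-binding CArG box, in its strict form and on both strands, was in none of the 7 genes' windows and in 1.81% of all genes with a window. The AP-1 element TGANTCA was also in none of them, against 8.97% of all. To show the contrast, the 250 bases before the start site of Cyr61, a textbook target, are given above 211 bases from the Tead2 window, which end where the annotated gene begins:
Cyr61 (chr3:145649986-145650235, minus strand): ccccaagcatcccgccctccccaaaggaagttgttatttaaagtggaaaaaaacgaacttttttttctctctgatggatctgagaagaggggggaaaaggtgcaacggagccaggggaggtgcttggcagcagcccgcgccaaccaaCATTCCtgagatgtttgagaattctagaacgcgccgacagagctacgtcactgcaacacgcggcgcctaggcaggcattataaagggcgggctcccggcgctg
Tead2 (chr7:45215542-45215752, plus strand): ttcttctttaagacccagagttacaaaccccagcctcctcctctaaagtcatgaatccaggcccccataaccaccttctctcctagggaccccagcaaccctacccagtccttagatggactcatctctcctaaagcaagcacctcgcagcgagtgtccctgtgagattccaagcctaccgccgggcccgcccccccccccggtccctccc

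A match describes letters in a short window. Binding was not measured here, and distal elements lie outside these windows.

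The question put to the 10 genes was which of their transcripts differed in level when cardiomyocytes carried dnMKL1 besides GFP. One did at an adjusted p-value under 0.05: Tead2 was higher in the dnMKL1 group. The others, 9 of 10, did not pass, while of 14056 genes tested 34.1% passed in either direction, 16.6% higher and 17.4% lower. The median log2 fold change (dnMKL1 over GFP) of the 10 genes was 0.17, beside 0.021 over all genes tested, and 8 of the 10 values were positive. The table has no values per library, so levels are given as the mean implied for each group by its base mean and fold change, in counts normalized by the authors' size factors, and the replicate error enters through the deposited standard error (SE).

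The table's header does not name the direction, which was set by Mkl1, the gene that dnMKL1 derives from. The authors' deposited table gave Mkl1 a value of 9.80 on the log2 scale (SE 0.15), for implied means of 83.9 with GFP and 74899 with dnMKL1. Vector and endogenous reads are not separated in this value. Size factors recovered from genes with a single read overlapped between groups, at 0.660 to 1.28 in GFP and 0.809 to 1.58 in dnMKL1 libraries (exact permutation test of the means, two-sided, p = 0.532). Library totals estimated from them were 8803005 to 17123500 counts and 8835151 to 17228537 counts. Cardiomyocyte markers dominated both groups, and among 7 of them 4 were lower and 0 higher in the dnMKL1 group. This was 57.1% called, beside 34.1% of all genes tested. Their 7 values were all negative, with a median log2 fold change of -0.41. Their summed implied means were 1.06e+06 normalized counts with GFP and 642679 with dnMKL1, a ratio of 0.603, or 0.745 without Myh6, the most abundant.

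**Figure D1:**
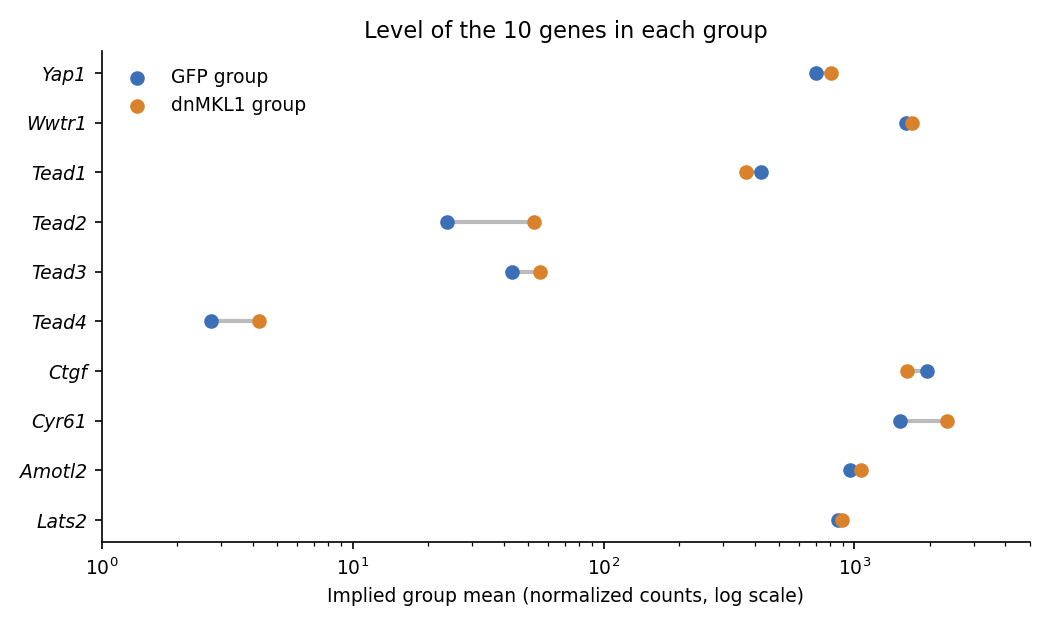
Implied group means of the 10 genes in normalized counts on a log axis, GFP in blue and dnMKL1 in orange, joined by a grey line for each gene. The points of most genes lie close together, with the widest gap for Tead2, from 23.8 to 52.7, and Tead4 is the lowest, at 2.73 and 4.24.

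Yap1 (chr9:7931999-8004596) encodes the coactivator YAP. Its implied mean went from 705 normalized counts with GFP to 806 with dnMKL1, 1.14 times as high, with a 95% interval of 0.980 to 1.33. On the log2 scale the authors' deposited table listed 0.19 (SE 0.11; DESeq2 Wald test, adjusted p = 0.190), so the difference was within the replicate error. Wwtr1 (chr3:57455649-57575910) encodes TAZ, the paralog of YAP, and stood at 1609 and 1697 normalized counts, a ratio of 1.05 (95% interval 0.958 to 1.16). The authors' deposited table gave it a log2 fold change of 0.076 (SE 0.070, adjusted p = 0.452). Wwtr1 was measured closely: of the 200 genes nearest to it in base mean, 47 had a smaller SE. Under the authors' scaling its interval leaves out a rise of more than 1.16-fold and a fall below 0.958 of the GFP level. Under total-count scaling, described below, Wwtr1 was called higher at 0.36 on the log2 scale, so these limits depend on the scaling. Per kilobase of the longest annotated transcript, the mean level over all libraries was 352 normalized counts for Wwtr1 and 143 for Yap1. With the median transcript length it was 358 and 525, so the order of these paralogs depended on the length used.

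Among the TEAD factors, the most abundant gave a value below 0 and the other 3 values above 0. Tead1 (chr7:112679318-112906807), the main TEAD of the heart, stood at 424 normalized counts with GFP and 371 with dnMKL1. The authors' deposited table gave a log2 fold change of -0.19 (SE 0.12, adjusted p = 0.222), with a 95% interval of -0.43 to 0.042. Tead2 (chr7:45215753-45233644), a TEAD factor known for its expression in embryos, rose from 23.8 to 52.7 normalized counts, a fold of 2.22. For Tead2 the authors' deposited table listed 1.15 on the log2 scale (SE 0.29, adjusted p = 0.000386). Its 95% interval of 0.59 to 1.71 lies wholly above that of Tead1. The difference between these genes was not tested, since both come from the same libraries and their covariance is not in the table.

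Tead3 (chr17:28331671-28350817) went from 43.3 to 55.9 normalized counts, a ratio of 1.29 (95% interval 1.02 to 1.64). The authors' deposited table gave it a log2 fold change of 0.37 (SE 0.18), with a p-value of 0.0365 and an adjusted p-value of 0.0936, so it did not pass after adjustment over all genes. Of the 200 genes nearest in base mean, 0 had a smaller SE than Tead3. Tead4 (chr6:128224288-128300823) was close to the limit of what these libraries show, at 2.73 and 4.24 normalized counts. The log2 value listed by the authors' deposited table was 0.63 (SE 0.72, adjusted p = 0.562), and the interval ran from -0.78 to 2.05. This wide interval covers 0 and changes of both signs, so the direction of Tead4 is not known from these libraries.

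Per kilobase of the longest transcript, Tead1 made up 67.5% of the summed TEAD level with GFP and 52.9% with dnMKL1. Tead2 went from 11.1% to 22.0% of that sum, Tead3 from 19.96% to 23.1% and Tead4 from 1.41% to 1.957%. The order was Tead1, Tead3, Tead2 and Tead4 in both groups, with Tead3 and Tead2 nearly level in the dnMKL1 group. These shares have no error of their own in the table and depend on transcript length: with the median length, Tead1 took 78.3% of the summed level over all libraries in place of 59.8%. With that length Tead2 took 16.4% and Tead3 4.86%, in place of 16.9% and 21.6%, so the order of Tead2 and Tead3 reversed. Tead2 shares exon bases with Cd37, a leukocyte gene on the opposite strand, and the use of strand in the counting is not stated. Cd37 had a base mean of 0.834 in the authors' deposited table, far under the 38.2 of Tead2. Yap1, Ctgf and Lats2 share exon bases with Gm20416, Gm15270 and Gm49361, which are not in the authors' deposited table under these symbols. Gm49361 lies on the strand of Lats2, while Gm20416 and Gm15270 lie opposite Yap1 and Ctgf. The annotation used in the counting is not given, so reads in those stretches are uncertain.

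**Figure D2:**
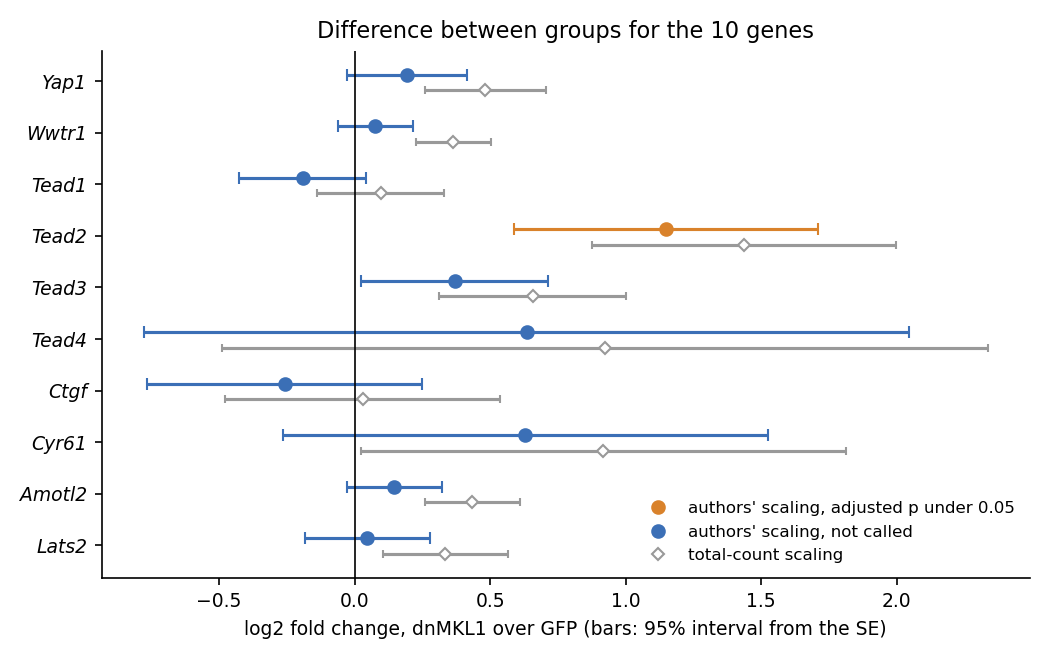
Log2 fold change of the 10 genes, dnMKL1 over GFP, with bars for the 95% interval from the deposited SE. Round points use the authors' scaling, where Tead2 (orange, 1.15) is the gene called, and open diamonds show the same values after total-count scaling, 0.29 higher for each gene.

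None of the 4 classic targets passed the test. Ctgf (chr10:24595442-24598683) encodes a secreted matricellular protein, also named CCN2, and its transcript is a standard readout of YAP activity. Its implied mean was 1939.5 normalized counts with GFP and 1622 with dnMKL1, a ratio of 0.836 (95% interval 0.588 to 1.19). The authors' deposited table gave a log2 fold change of -0.26 (SE 0.26, adjusted p = 0.498). Cyr61 (chr3:145646976-145649981), or CCN1, is a related secreted protein and an immediate early gene. It stood at 1516 and 2345 normalized counts, a ratio of 1.55 with a wide 95% interval of 0.832 to 2.88. The log2 value of Cyr61 listed by the authors' deposited table was 0.63 (SE 0.46, adjusted p = 0.312). These paralogs, both known targets of YAP and of MRTF, had values of opposite sign, neither of which passed.

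Amotl2 (chr9:102716672-102733418) encodes an angiomotin-family protein that binds YAP in the cytoplasm, so that it is both a target and an inhibitor. Its level was 961 normalized counts with GFP and 1062 with dnMKL1, a ratio of 1.11 (95% interval 0.979 to 1.25). The authors' deposited table listed a log2 fold change of 0.15 (SE 0.089, adjusted p = 0.216). Lats2 (chr14:57689662-57758388), the kinase that phosphorylates YAP and is itself induced by it, was at 862 and 891 normalized counts, a ratio of 1.03 (95% interval 0.880 to 1.21). The authors' deposited table gave it a log2 fold change of 0.047 (SE 0.12, adjusted p = 0.822), the value nearest to 0 among the 10. For these feedback genes the intervals under the authors' scaling leave out a change of 1.5-fold in either direction. For Ctgf they leave out a rise of that size, and for Cyr61 they leave out neither a rise of 2.88-fold nor a fall to 0.832 of the GFP level. Total-count scaling, described below, raises all these limits by 0.29 on the log2 scale. Under it Amotl2 and Lats2 were called higher, at 0.43 and 0.33, so these limits depend on the scaling.

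Per kilobase of the longest transcript, the mean level over all libraries was 956 normalized counts for Cyr61, 715 for Ctgf, 228 for Amotl2 and 169 for Lats2. Tead1 stood at 39.9, Tead3 at 14.4, Tead2 at 11.3 and Tead4 at 1.13. The median transcript length raised Amotl2 to 1274 and Lats2 to 1012, above Cyr61 and Ctgf, because short transcripts are annotated for both. The TEAD factors were the lowest of the 10 under either length.

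The 4 targets differed in precision. At a base mean of 1931 normalized counts in the authors' deposited table, Cyr61 had a larger SE than 199 of the 200 genes nearest in base mean, whose median SE was 0.092. Ctgf, at a base mean of 1781 in the authors' deposited table, had a larger SE than 197 of its 200 neighbours, with a median of 0.098 there. The spread between libraries that gives these SEs under the negative binomial model is a coefficient of variation of 49.97% for Cyr61 and 28.3% for Ctgf. It was 12.5% for Lats2, 11.9% for Yap1, 9.26% for Amotl2 and 7.28% for Wwtr1. The spread implied by the SE was thus larger for Ctgf and Cyr61 than for these effectors and feedback genes. It is a value of the model, since the spread between libraries was not observed directly. Endothelial markers had coefficients as wide, of 25.3% to 53.6% over 10 genes. Their SEs were larger than those of 172 to 198 of their 200 neighbours. The coefficients ran from 24.1% to 51.1% over 7 macrophage markers and from 34.1% to 80.3% over 4 epicardial markers. They ran from 15.1% to 33.5% over 9 mural, 10.7% to 44.4% over 10 fibroblast and 9.98% to 18.8% over 7 cardiomyocyte markers. A wide spread was thus not particular to endothelial markers. Whether the spread of Ctgf and Cyr61 moved with that of any marker list was not tested. Whether 1 library produced the spread cannot be read from the table.

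**Figure D3:**
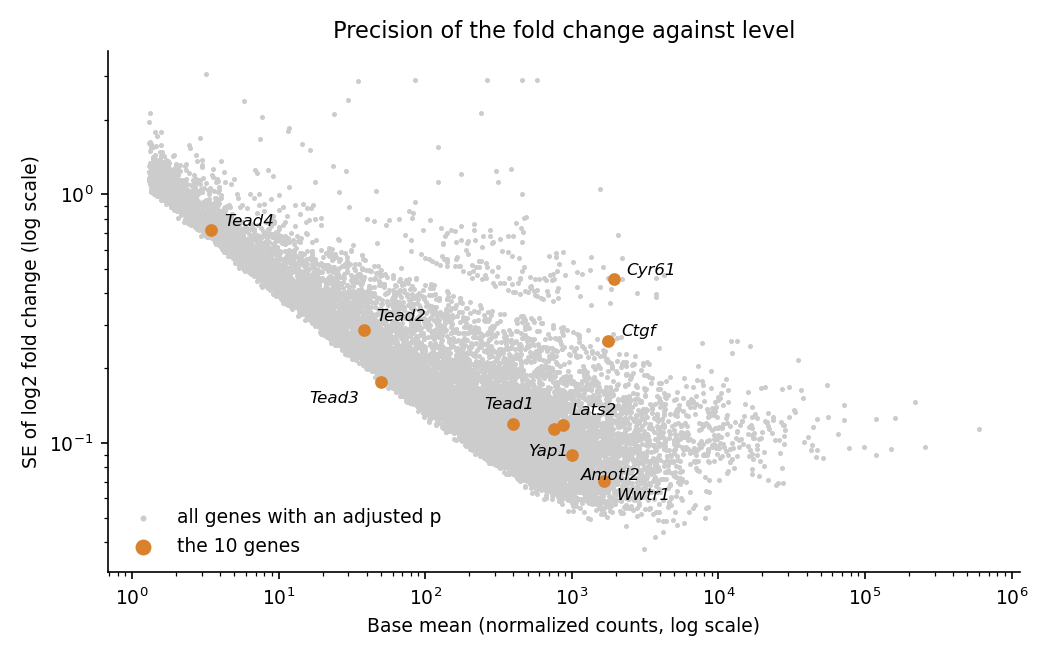
SE of the log2 fold change against base mean, both on log axes, for all 14056 genes with an adjusted p-value (grey) and the 10 genes (orange). Cyr61 (SE 0.46) lies in the sparse band above the main cloud and Ctgf (SE 0.26) at its upper edge, while Tead3 sits on the lower edge.

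The pathway around the 10 genes was followed through 7 lists. Of their 58 genes, 58 were in the table and 53 had an adjusted p-value. Of these, 19 were higher and 8 lower in the dnMKL1 group, 50.9% called against 34.1% of all genes. The Hippo kinases and their adaptors moved in both directions. Of 10, 3 were higher, 2 lower and 5 did not pass, with a median log2 fold change of 0.18. Stk3, the kinase MST2 that activates LATS, was higher, with 0.74 (SE 0.11, adjusted p = 1.91e-10) in the authors' deposited table. Mob1a and Mob1b are interchangeable cofactors of LATS, and their values were of opposite sign: the authors' deposited table gave 0.35 (SE 0.12) for Mob1a and -0.43 (SE 0.13) for Mob1b. The kinases Taok3 and Taok1, which can activate MST or LATS, were also called in opposite directions, at 0.61 (SE 0.19) and -0.35 (SE 0.12) in the authors' deposited table. Under total-count scaling, described below, Mob1b and Taok1 were no longer called.

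Among upstream regulators, 10 could be tested, of which 3 were higher, 1 lower and 6 did not pass, with a median of 0.12. The share called was 40%, near the 34.1% of all genes tested. Nf2, the gene of the membrane scaffold merlin that promotes LATS activity, was lower, from an implied 2248 to 1711 normalized counts. The authors' deposited table gave it -0.39 (SE 0.081, adjusted p = 1.11e-05), and under total-count scaling it was -0.11 and not called. Frmd6, a FERM-domain protein of the same membrane complex, was higher at 0.40 (SE 0.10) in the authors' deposited table. Jub and Limd1 are LIM proteins that inhibit LATS, and the authors' deposited table gave them 0.52 (SE 0.15) and 0.20 (SE 0.082). Limd1 lost its call, at an adjusted p of 0.0519, when p-values were adjusted over all genes that have one.

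The 14-3-3 proteins, which hold phosphorylated YAP in the cytoplasm among many other clients, had 3 members higher and 2 lower of 7, with a median of 0.22. The share called was 71.4%, beside 34.1% of all genes tested. Ywhaq had the largest of these called differences, 0.92 (SE 0.14) in the authors' deposited table, from an implied 232 to 438 normalized counts. Ywhaz and Ywhab were higher at 0.34 (SE 0.083) and 0.22 (SE 0.071) in the authors' deposited table. The most abundant, Ywhag, and Ywhae were lower at -0.17 (SE 0.057) and -0.18 (SE 0.055) there, and both turned positive, at 0.12 and 0.11, and uncalled under total-count scaling.

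VGLL proteins compete with YAP for TEAD or serve as cofactors of TEAD in their own right. Vgll4, the best expressed of them, is a TEAD corepressor in the heart and was not called, with 0.23 (SE 0.19, adjusted p = 0.392) in the authors' deposited table. Of the 3 VGLL genes with an adjusted p-value 33.3% were called, near the 34.1% of all genes tested. The only call was Vgll2, a cofactor known from skeletal muscle, which was higher. Its implied mean was 0.441 normalized counts with GFP and 17.8 with dnMKL1, so that the GFP level rests on very few reads. The authors' deposited table listed a log2 fold change of 5.34 (SE 1.19, adjusted p = 5.83e-05), and the size of this rise is poorly known.

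The remaining YAP target genes were taken from a published signature that also holds Ctgf, Cyr61, Amotl2 and Lats2. Of the other 18, 17 had an adjusted p-value, with 8 higher, 1 lower and 8 not passing, a median log2 fold change of 0.36 and 52.9% called. Ankrd1, a titin-associated repeat protein and the most abundant of them in cardiomyocytes, was higher, from an implied 9565 to 13061 normalized counts. The authors' deposited table gave it 0.45 (SE 0.18, adjusted p = 0.0393). Nt5e, the ectoenzyme CD73 that forms adenosine, rose 3.54-fold (95% interval 2.71 to 4.62), at 1.82 (SE 0.20, adjusted p = 1.75e-18) in the authors' deposited table. Tgfb2, a TGF-beta ligand, was at 1.23 (SE 0.28) and Asap1, a GTPase-activating protein of focal adhesions, at 0.70 (SE 0.15) in the authors' deposited table. F3 encodes tissue factor, and the authors' deposited table gave it 0.52 (SE 0.16). Nuak2, a kinase of the AMPK family, was the gene that fell, at -1.45 (SE 0.34, adjusted p = 0.000189) in the authors' deposited table. The 4 targets among the 10 genes had 0 called and these 18 had 9 of 17 called, beside 34.1% of all genes tested. This difference was not tested. It rests on few genes, of which Ctgf and Cyr61 had large SEs for their level. Of the 12 of these 18 with a promoter window, 4 held CATTCC or its reverse, 33.3% beside 16.6% of all genes with a window. As YAP targets they may have had this count partly set in advance. Ankrd1 held 2 matches, while Nt5e, Tgfb2 and F3 held none. F3 was the 1 gene of the 12 with an AP-1 element, where 8.97% of all genes held it. Asap1 and Nuak2 had no window.

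Among the other CCN genes, relatives of Ctgf and Cyr61, 1 of 3 with an adjusted p-value was called, where 34.1% of all genes were. Wisp2 was higher at 2.20 (SE 0.82, adjusted p = 0.0258) in the authors' deposited table, on implied means of 1.54 and 7.04 normalized counts. Wisp1, the most abundant, was not called, at 0.31 (SE 0.21, adjusted p = 0.263) in the authors' deposited table. Of 4 muscle genes with a classic M-CAT element, all 4 held CATTCC or its reverse in a promoter window. Of all genes with a window 16.6% held it, but the 4 were listed for this element, which largely set their count in advance. Adjusted p-values were listed for 3 of them and 2 were lower, where 17.4% of all genes tested were lower. The authors' deposited table gave -0.87 (SE 0.11) for Myh6, the adult cardiac myosin heavy chain, and -0.58 (SE 0.097) for Tnnt2, the gene of cardiac troponin T. Both are also among the 4 cardiomyocyte markers that were lower. Acta1 was not called, at -0.20 (SE 0.23). Myh7 had no p-value, and its value was positive and wide, at 0.92 (SE 0.90). Acta1 and Myh7 were named after their values were seen.

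**Figure D4:**
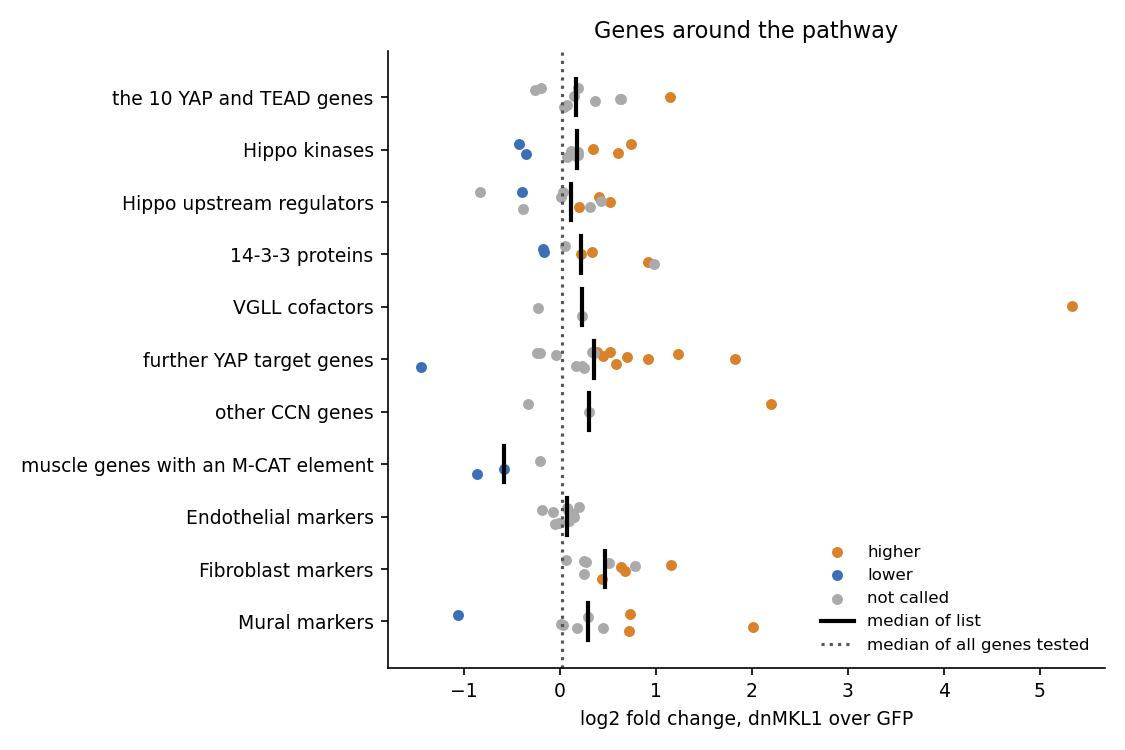
Log2 fold change, dnMKL1 over GFP, of each gene with an adjusted p-value in the 10-gene set, the 7 pathway lists and 3 marker lists. Orange points were called higher, blue lower and grey not called, bars mark list medians and the dotted line the median of all genes tested (0.021); the further YAP target genes have 8 orange points and 1 blue.

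Ctgf, Cyr61 and Yap1 are also expressed by fibroblasts, mural and endothelial cells, so the markers of those cells were set beside the 10 genes. Fewer cells of a type and less RNA per cell cannot be told apart in such bulk samples. Of 10 fibroblast markers, 4 were higher and 0 lower, 40% called beside 34.1% of all genes tested. Their values were positive in 10 of 10, with a median log2 fold change of 0.47. Their summed implied means were 4437 normalized counts with GFP and 6890 with dnMKL1, a ratio of 1.55. In each marker list 0 genes were at 0. The most abundant, Col3a1, was at 0.44 (SE 0.15) in the authors' deposited table. The fibroblast values ran from 0.063 for Pdgfra to 1.15 for Gsn in the authors' deposited table, both named after their values were seen. Of 9 mural markers, 3 were higher and 1 lower, 44.4% called, with 8 positive values, a median of 0.30 and sums of 18254 and 15947. The one that fell was the most abundant, Acta2, which immature cardiomyocytes also express, at -1.06 (SE 0.25) in the authors' deposited table. Without it, a setting chosen after seeing the data, the mural sums were 7799.7 with GFP and 10949 with dnMKL1, a ratio of 1.40. Most of these sums came from Abcc9, at 6332 and 7773, which was not called. Cspg4 went from 501 to 2019 and was called higher, as were Myh11 and Tagln. Pdgfrb, Rgs5 and Kcnj8 had ratios of 1.14, 1.01 and 1.02 and were not called. The ratio of 1.40 thus rests largely on Abcc9 and Cspg4 and is not a shift shared by all mural markers. Endothelial markers had 0 of 10 called (DESeq2 Wald test; also 0 at an unadjusted p-value under 0.05), with sums of 3422 and 3548, and Kdr as the most abundant at 0.097 (SE 0.29) in the authors' deposited table. The summed levels of 7 macrophage markers were 150 and 131, with 1 called higher, and those of 4 epicardial markers 47.2 and 49.1, with 0 called (also 0 at an unadjusted p-value under 0.05). Lyz2 and Wt1, the most abundant of these lists, had base means of 50.3 and 19.95 in the authors' deposited table. For the 7 cardiomyocyte markers the ratio of the sums was 0.603, as given above. The part of non-cardiomyocyte RNA in the difference of Tead2 and in the values of the further YAP target genes was not tested.

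The number of calls depended on scaling. The implied means of all genes summed to 13330302 with GFP and 10915829 with dnMKL1. Scaling both groups to one total adds 0.29 to every log2 fold change and moves the median of all genes tested from 0.021 to 0.31. Under it 6 of the 10 genes were higher and 0 lower, where 40.4% of all genes were higher. Besides Tead2 these were Yap1 at 0.48, Wwtr1 at 0.36, Tead3 at 0.66, Amotl2 at 0.43 and Lats2 at 0.33. The shift is the same for each gene, so every distance from the median of all genes is as under the authors' scaling. Tead1 and Ctgf changed sign, to 0.096 and 0.030, and were not called under either scaling. Over the 7 lists the split went from 19 higher and 8 lower to 32 higher and 3 lower. Over all 14056 genes tested it went from 2340 higher and 2452 lower to 5685 higher and 927 lower. Tead2 was called higher under both scalings, but an upward shift of every value could hardly remove the call of a gene already higher.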

How the data were processed

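RNA was measured in 5 GFP and 5 dnMKL1 libraries of sorted cardiomyocytes, made with SMART-Seq v4 and Nextera XT kits per the labels' protocols. Per the labels' design text, STAR aligned the reads and featureCounts counted them. The submitters' processing notes name STAR 2.5.3a, Subread 1.5.2 and mm10; annotation and strand use are not given in the sources used here. Replicates are biological per the labels.

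The deposited table has the columns of a DESeq2 result, per the file headers. Its base mean is a signal in size-factor-normalized counts, averaged by the authors over all libraries. The authors deposited log2 fold changes and their SE. Dividing the first by the other returns the deposited score, a Wald statistic, and the deposited p-value is its two-sided normal p-value, adjusted by Benjamini-Hochberg (recomputed with a largest gap of 1.44e-07). Genes pass at an adjusted p-value under 0.05 over 14056 genes.

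From these, group means, 95% normal intervals, size factors (genes with 1 read in 1 library), library totals and the coefficient of variation that gives each SE were computed (pandas 2.3.3, scipy 1.17.1) and tested on simulated data. Totals take each library to have its group's composition; intervals come from the SE. Lengths and coordinates come from GENCODE M21 (GRCm38), promoters from RefSeq. Older symbols were matched through RefSeq synonyms. Named genes are the 10 members, Mkl1, up to 6 called genes with the smallest p-values in each pathway list, and the most abundant gene of each list. The result for 1 gene that this rule names is not reported here. Members and lists were chosen with earlier results of these data known. The table has no values per library, so no count test was run; the authors' adjusted p-value was used, as planned for that case.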

Additional observations from a re-analysis of the deposited data

How the results depend on the processing

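No paired analysis was possible because the table holds no values per library; for the same reason the fits that leave out each replicate and the count tests with edgeR and DESeq2 were not run. Of the 10 genes 1 was called as deposited, 2 at an adjusted p-value under 0.1 (Tead3 added), 0 with a base mean of at least 100, where Tead2 is not tested, and 6 under total-count scaling. The count stayed at 1 under the other 5 alternatives. The 27 calls over the 7 pathway lists became 15 with an absolute log2 fold change of at least 0.5, which removes small changes by construction, and as a pooled count stayed within 1.5 times under the other 7. Single lists moved further. At an adjusted p-value under 0.01 the further YAP target genes went from 9 to 5 calls and the Hippo kinases from 5 to 3. With the minimum fold change the kinases went to 2, the upstream regulators from 4 to 1 and the 14-3-3 proteins from 5 to 1. Under total-count scaling the fibroblast markers went from 4 to 7 calls of 10, all higher, where 40.4% of all genes tested were higher. For the other alternatives the share of all genes called was not computed. The VGLL and other CCN lists, with 1 call each, moved between 0 and 2. Total-count scaling reversed the sign of 4 named genes, by its shift of 0.29: Tead1 to 0.096, Ctgf to 0.030, Ywhae to 0.11 and Ywhag to 0.12. It made 7 others stronger and 3 weaker. Levels per kilobase moved with the median transcript length for 9 of the 10 genes (not Cyr61, which has 1 transcript), for Amotl2 from 228 to 1274. Depth limits Tead4, Vgll2 and Wisp2, whose GFP means are under 3 counts. Total-count scaling was planned with its effect on all genes already known.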
